A study of Mus musculus with 8 samples.

Results

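Zymosan is a preparation of yeast cell wall that sets off peritonitis when it is injected into the peritoneum. Its β-glucans are bound by Dectin-1, encoded by Clec7a, which signals through a motif in its own tail, and fungal mannans and glycolipids are bound by Dectin-2 (Clec4n), Mincle (Clec4e) and MCL (Clec4d), which signal through the Fc receptor γ chain. Both routes recruit the kinase Syk, which acts upstream of the adaptor Card9 and its partners Bcl10 and Malt1 to switch on NF-κB, while Tlr2, paired with Tlr1 or Tlr6, detects wall lipids and signals through Myd88. These receptors are best known on neutrophils, monocytes and macrophages, the cells that fill the peritoneum after zymosan.

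The 9 genes examined here were these 4 C-type lectin receptors, Tlr2 with its partners Tlr1 and Tlr6, Card9 and Syk. They were taken by gene symbol from tables of 49671 genes, each matched 1 row, and all 9 had at least 10 counts in total and were tested. Transcripts were sequenced in exudate leukocytes from 8 wild-type C57BL/6 mice, described in the methods as male and 6 to 8 weeks old. The 4 SPM mice received a panel of specialized pro-resolving mediators into the peritoneum, with 0.1 ng each of the resolvins RvD1, RvD2, RvD5 and RvE2 and of the maresin MaR1. It was given first on day 0, then on days 2, 5, 7 and finally 9, and a sixth time on day 12 together with 1 mg of zymosan A. The 4 vehicle mice received vehicle at the same times and the same zymosan on day 12. All 8 mice were thus challenged, exudates were taken 12 h after zymosan, and there were no mice without zymosan, so the comparison answers whether repeated SPM dosing was accompanied by other levels of the genes that sense zymosan, not what zymosan did to them.

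Each library was 1 mouse and held 15154054 to 21114301 reads counted on genes. The cells were mixed leukocytes, and markers of each phagocyte type were found in all 8 mice: the summed level of 8 neutrophil markers was 12746 to 24950 CPM (counts scaled to the size of the library), that of 5 monocyte markers 1492 to 2148 CPM and that of 8 macrophage markers 585 to 980.0 CPM, whereas 4 mesothelial markers summed to at most 8.04 CPM. S100a9, F13a1 and Adgre1 had the most counts in the 3 leukocyte lists. Markers of T cells (Cd3e), mast cells (Cma1), fibroblasts (Col1a1) and eosinophils (Ear2) each summed to below 100 CPM, while 3 B cell markers summed to 297 to 636 CPM. Vehicle mouse 3 had the most genes detected, 27592 against 23051 to 26428 in the others, and the SPM mice 3 and 4 had the fewest reads. In such bulk samples fewer cells of a type and less RNA per cell cannot be told apart.

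No difference between SPM and vehicle mice passed the test for any of the 9 genes. With edgeR's quasi-likelihood test, 0 of 9 reached an unadjusted p under 0.05, against 6.08% of the 21423 genes tested, and the smallest p among them was 0.0906, for Clec7a. After Benjamini-Hochberg adjustment across the 21423 genes 0 of 9 were called, against 0% of all genes, and DESeq2 and limma also called 0 of the 9. The adjusted p of the 9 in edgeR lay between 0.794 and 0.978. The CPM of SPM and vehicle mice overlapped for all 9, whereas the groups did not overlap for 3.83% of all genes. Clec7a and Syk were higher by mean in SPM mice and the other 7 were lower, with a median log2 fold change of −0.037 against −0.017 over all genes tested. The upper bound of the 95% interval for Clec7a, 0.63, was the bound farthest from 0 among the 9, so for the other 8 the intervals exclude a log2 change as large as that in either direction.

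**Figure D1:**
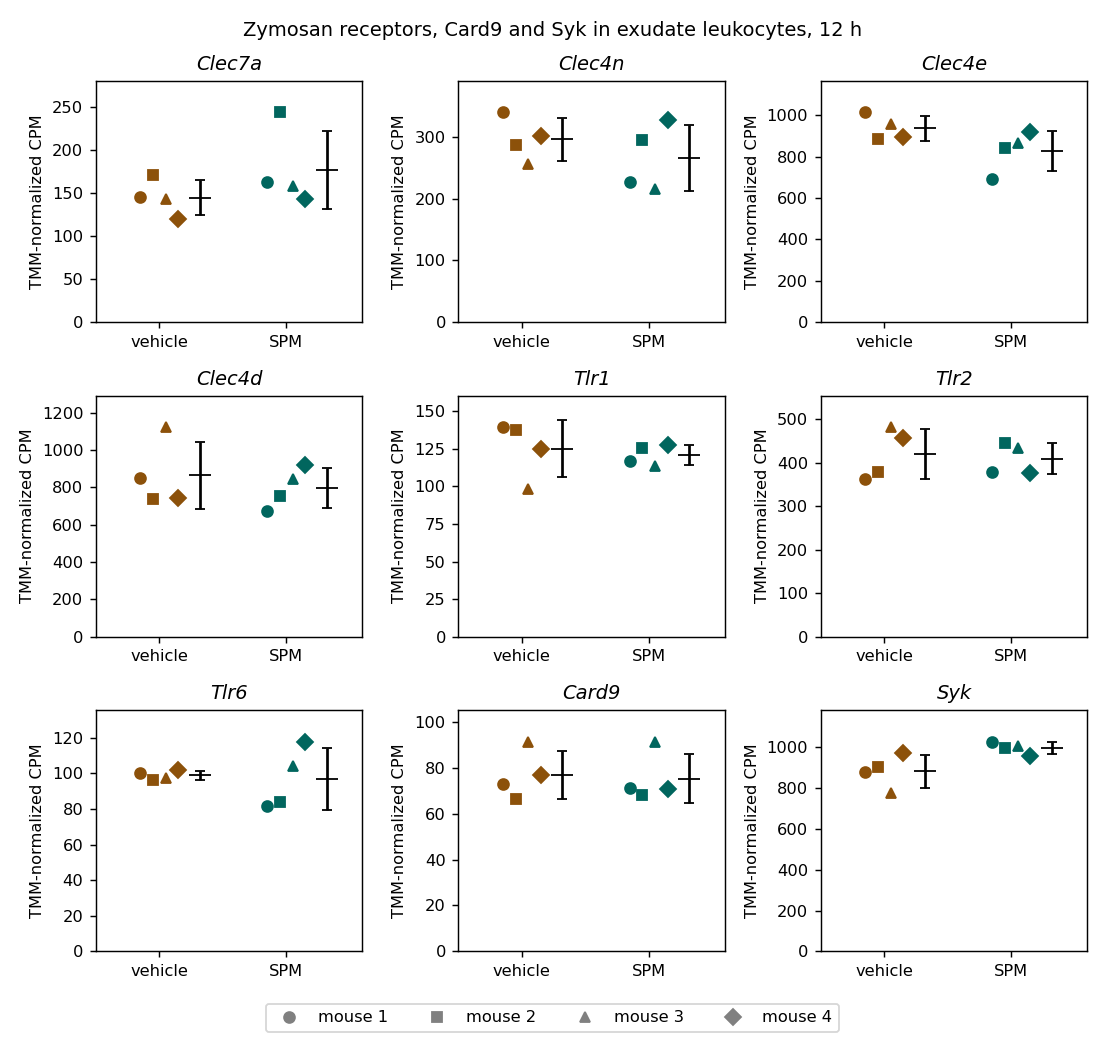
CPM scaled by TMM (y axes, each from 0) of the 9 genes in the 4 vehicle mice (brown) and the 4 SPM mice (green), with one symbol for each mouse number and the mean ± SD beside the points. The groups overlap in every panel, most nearly separating for Syk, where 3 SPM mice lie above all vehicle mice.

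**Figure D2:**
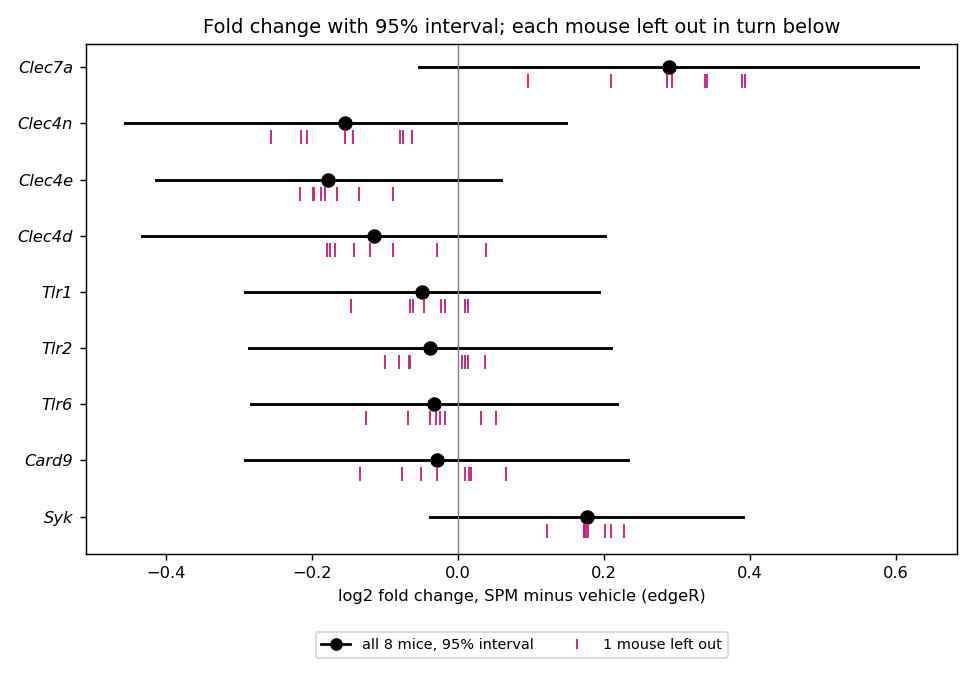
Log2 fold change of each gene, SPM minus vehicle, from edgeR (black points) with its 95% interval (lines), and below it the estimates with each mouse left out in turn (ticks). All 9 intervals cross 0, and the ticks of Clec7a, Clec4n, Clec4e and Syk stay on one side of it.

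Clec7a, the β-glucan receptor Dectin-1, lies on the minus strand at chr6:129461591-129472779 (GRCm38). Its level was 162, 243, 158 and 144 CPM in SPM mice 1 to 4 and 146, 170, 143 and 120 CPM in vehicle mice 1 to 4. SPM mouse 2 stood above every other mouse, and the other 3 SPM mice lay inside the vehicle range. The means were 177 ± 45.2 (SD, n = 4) and 145 ± 20.7 CPM (SD, n = 4). The log2 fold change was 0.29 ± 0.16 (SE), with a 95% interval of −0.053 to 0.63, or a change of −3.58% to 54.8% (edgeR p = 0.0906, adjusted p = 0.794; two-sided exact permutation p = 0.257). The estimate was 0.096 without SPM mouse 2. In edgeR it reached an unadjusted p of 0.0326 without SPM mouse 4 (0.39) and of 0.0366 without vehicle mouse 2 (0.39), so single mice decided on which side of 0.05 it lay.

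Clec4n, Clec4d and Clec4e are neighbours on chromosome 6, where they span 60.0 kb. Clec4n, the mannan receptor Dectin-2 (plus strand, chr6:123229843-123247021), reached 227, 296, 215 and 327 CPM in SPM mice 1 to 4, compared with 340.0, 287, 256.2 and 302 CPM in vehicle mice 1 to 4. SPM mice 1 and 3 were below every vehicle mouse, while SPM mouse 4 was above 3 of them. The log2 fold change was −0.15 ± 0.14 (SE), with a 95% interval of −0.46 to 0.15 (edgeR p = 0.290, adjusted p = 0.856; exact permutation p = 0.314). Single mice moved it: it was −0.075, −0.063 and −0.26 when SPM mouse 1, 3 or 4 was left out, and −0.079 when vehicle mouse 1 was.

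Clec4e, the glycolipid receptor Mincle (minus strand, chr6:123281789-123289870), had 691, 839.8, 864 and 918 CPM in SPM mice 1 to 4, and vehicle mice 1 to 4 had 1013, 885, 955 and 893 CPM. It was the receptor whose groups came closest to separating: 3 of 4 SPM mice lay below all vehicle mice, and SPM mouse 4 lay among them. In edgeR the change was −0.18 ± 0.11 (log2, SE), with a 95% interval of −0.41 to 0.059, or −24.9% to 4.20% (edgeR p = 0.130, adjusted p = 0.802; exact permutation p = 0.114). Without SPM mouse 1, the lowest of the 8, it was −0.088.

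Clec4d, which encodes MCL, a partner of Mincle (plus strand, chr6:123262111-123275265), was measured at 672, 754, 843 and 919 CPM in SPM mice 1 to 4, against 852, 735, 1122 and 744 CPM in vehicle mice 1 to 4. Vehicle mouse 3 alone was above all SPM mice, and the group medians were 799 CPM in SPM and 798 CPM in vehicle mice. The log2 fold change of −0.12 ± 0.15 (SE; 95% interval −0.43 to 0.20; edgeR p = 0.446, adjusted p = 0.902; exact permutation p = 0.600) turned to 0.039 when that mouse was left out. The 3 Clec4 genes were therefore lower by mean in SPM mice, without a difference past the test for any of them.

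The Toll-like receptors showed smaller differences in their means. Tlr2, the subunit common to both heterodimers (minus strand, chr3:83836272-83841767), reached 379, 447, 435 and 378 CPM in SPM mice 1 to 4, against 363, 379.7, 482 and 457 CPM in vehicle mice 1 to 4. All SPM mice were inside the vehicle range. Its log2 fold change was −0.037 ± 0.11 (SE), with a 95% interval of −0.29 to 0.21, or −17.9% to 15.7% (edgeR p = 0.750, adjusted p = 0.967; exact permutation p = 0.686).

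Tlr1, which joins Tlr2 in sensing triacylated lipopeptides (minus strand, chr5:64924679-64933563), had 117, 125, 114 and 127 CPM in SPM mice 1 to 4, against 139, 137, 98.1 and 125 CPM in vehicle mice 1 to 4. The SPM mice were close together, with an SD of 6.67 against 19.0 CPM (n = 4 each), and all lay inside the vehicle range, whose low end was vehicle mouse 3. The groups differed by −0.048 ± 0.11 (log2, SE; 95% interval −0.29 to 0.19; edgeR p = 0.673, adjusted p = 0.953; exact permutation p = 0.80).

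Tlr6, which joins Tlr2 in sensing diacylated lipopeptides and zymosan (minus strand, chr5:64952031-64960097), was measured at 81.5, 83.8, 104 and 118 CPM in SPM mice 1 to 4, compared with 100.4, 96.3, 97.4 and 102 CPM in vehicle mice 1 to 4. Here the vehicle mice were the close group and the SPM mice lay on both sides of it, 2 below all vehicle mice and 2 above. The SD was 17.3 CPM in SPM and 2.53 CPM in vehicle mice (n = 4 each), a difference in spread that was not tested. The means gave a log2 fold change of −0.033 ± 0.12 (SE; 95% interval −0.28 to 0.22; edgeR p = 0.781, adjusted p = 0.973; exact permutation p = 0.80). The 2 SPM mice that were high are also the 2 with the fewest reads.

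Tlr1 and Tlr6 are near-identical over part of their coding sequence, which bears on how far their counts can be told apart, since only reads with 1 place in the genome were counted. The 2 genes lie 18.5 kb apart on chromosome 5. Of the 50-base words in the transcripts of Tlr1 and Tlr6, 454 were common to both genes (13.6% of those of Tlr1 and 12.3% of those of Tlr6), and of the 100-base words 259 were. Tlr1 had a further share in other genes, 15.4% of its 50-base words in all. The longest run that is identical in both, 229 bases in the coding sequence of each, is shown because a read pair wholly inside it has 2 places in the genome. Sequencing was paired-end per the methods, and a pair with 1 mate outside such runs can still have 1 place. It was read from the GENCODE M21 transcripts and lies on the minus strand of GRCm38 at chr5:64925537-64925765 in Tlr1 and chr5:64953828-64954056 in Tlr6.
Tlr1 and Tlr6: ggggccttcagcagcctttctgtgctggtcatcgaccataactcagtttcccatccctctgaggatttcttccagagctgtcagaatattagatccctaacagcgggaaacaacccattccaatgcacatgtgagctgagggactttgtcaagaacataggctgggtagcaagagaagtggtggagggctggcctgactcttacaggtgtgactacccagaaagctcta

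Read pairs lost in this run are missing from both genes in the mice of both groups, and how many were lost was not measured. Among the other members, Clec7a, Clec4e, Clec4d, Tlr2 and Syk had no 50-base word in any other gene, and Clec4n had 0.686% of them in a gene model, Gm44147. Card9 overlapped Gm13562 on the opposite strand over 87 exon bases, or 3.79% of its exons, where reads of both genes cannot be told apart without strand.

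Card9 (minus strand, chr2:26352176-26360918), the adaptor that carries the signal of Syk to NF-κB, reached 71.1, 68.1, 91.5 and 70.7 CPM in SPM mice 1 to 4, compared with 73.1, 66.2, 91.3 and 76.8 CPM in vehicle mice 1 to 4. One mouse in each group stood highest, mouse 3 in both, and the rest lay together at or below 76.8 CPM. Its log2 fold change was −0.029 ± 0.12 (SE), with a 95% interval of −0.29 to 0.23 (edgeR p = 0.815, adjusted p = 0.978; exact permutation p = 0.743), the smallest change of the 9.

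Syk (plus strand, chr13:52583173-52648792), the kinase on which the lectin receptors converge, had 1028, 998, 1008 and 959 CPM in SPM mice 1 to 4, against 878, 903, 778 and 974 CPM in vehicle mice 1 to 4. Of the SPM mice, 3 were above all vehicle mice, and SPM mouse 4 was below vehicle mouse 4 only. The means were 998 ± 29.0 (SD, n = 4) and 883 ± 81.1 CPM (SD, n = 4). This was a log2 fold change of 0.18 ± 0.10 (SE), with a 95% interval of −0.038 to 0.39, or −2.59% to 31.1% (edgeR p = 0.0987, adjusted p = 0.795; exact permutation p = 0.0571). The smallest exact permutation p that 4 against 4 mice allow is 0.0286. In DESeq2 the log2 fold change of 0.20 had an unadjusted p of 0.0283 by the Wald test, and the smallest adjusted p of the 9 genes was 0.985.

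Ordered by length-scaled level (TPM, counts scaled by gene length and library total; mean ± SD over the 8 mice), 3 of the 4 lectin receptors came first. Clec4d led with 1463 ± 188 TPM, more than 99.7% of the genes tested, followed by Clec4n with 563 ± 100.4, Clec4e with 503 ± 50.99 and Tlr2 with 389 ± 29.6 TPM. Syk was at 286 ± 34.5, Clec7a at 173 ± 41.7, Tlr1 at 105 ± 15.0, Card9 at 93.7 ± 8.72 and Tlr6 at 74.4 ± 9.55 TPM. Even Tlr6, the lowest, was above 90.3% of the genes tested, and the fewest counts of any member in any mouse were the 1095 of Card9 in SPM mouse 4. TPM here divides by all annotated exon bases of a gene: 9362 for Syk, 4965 for Clec4e, 1599 for Clec4d and 1420 for Clec4n. The order therefore rests on these lengths. In CPM, without length, Clec4e had means of 828 in SPM and 936 in vehicle mice. Those of Clec4d were 797 and 863, and those of Syk 998 and 883.

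**Figure D3:**
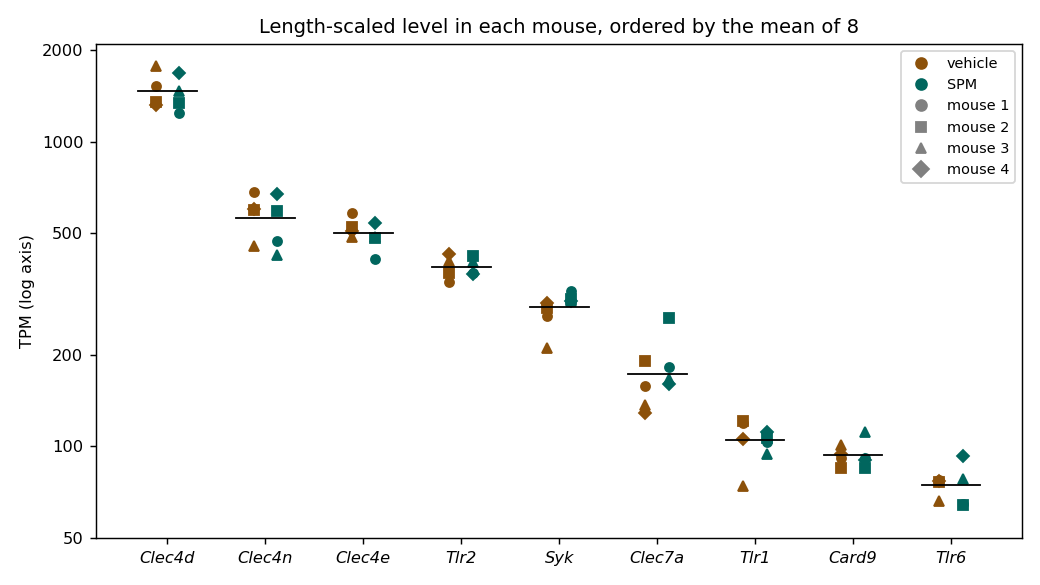
TPM (log axis) of the 9 genes in each of 8 mice, vehicle in brown and SPM in green, one symbol for each mouse number, with a line at the mean. Clec4d lies above all other genes in every mouse. The ranges overlap among Clec4n, Clec4e and Tlr2, between Syk and Clec7a, and among Tlr1, Card9 and Tlr6.

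The order held within mice for 6 of the 8 steps, by a two-sided exact sign-flip permutation test of the log2 ratios over the 8 mice, adjusted over the 8 steps. An annotated length that differs from the transcripts present would shift all 8 mice alike, which this test cannot detect. Clec4d was 2.62-fold higher than Clec4n in 8 of 8 mice (adjusted p = 0.0125). The steps from Clec4e to Tlr2 (1.29-fold), Tlr2 to Syk (1.37-fold), Syk to Clec7a (1.68-fold) and Clec7a to Tlr1 (1.63-fold) also held in 8 of 8 mice, with the same exact p. Clec4n and Clec4e did not differ beyond their spread (1.11-fold, 6 of 8 mice, adjusted exact p = 0.0804), nor did Tlr1 and Card9 (1.11-fold, 6 of 8 mice, adjusted exact p = 0.227). Card9 was above Tlr6 by 1.26-fold in 7 of 8 mice (adjusted exact p = 0.0208). When length was reduced to the 50-base words found in no other gene, the order by mean stayed Tlr1, Card9, Tlr6. Tlr1 was then 1.29-fold above Card9 (unadjusted exact p = 0.0313, against 0.227 with the whole length) and Card9 1.13-fold above Tlr6 (unadjusted exact p = 0.0625, against 0.0156). This reduction treats every read from a shared word as lost. The reads were paired, and a pair with 1 mate outside the shared words can still be placed. The reduction can therefore overstate the loss, and its p-values settle no order.

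Ratios within a mouse, which do not depend on library scaling, compared partners and alternatives of the pathway. They are ratios of TPM, so their size rests on the annotated lengths, which are the same in every mouse. Clec4d was 2.79 to 3.11 times as high as Clec4e in SPM mice and 2.58 to 3.65 times in vehicle mice, with vehicle mouse 3 at the top (difference 0.079 on the log2 scale, exact permutation p = 0.629). Without that mouse, left out because it stood apart, the difference was 0.20 and the 4 SPM mice lay above the other 3 vehicle mice, a description with no test. Tlr1 was 0.235 to 0.304 of Tlr2 in SPM mice and 0.183 to 0.346 in vehicle mice (−0.0051, exact permutation p = 0.971), and Tlr6 was 0.152 to 0.252 and 0.163 to 0.224 of Tlr2 (−0.018, exact permutation p = 0.943). Tlr2 transcripts thus exceeded those of either partner in all 8 mice.

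The ratio of Clec4n to Clec7a, of the mannan to the β-glucan receptor, was 2.60, 2.26, 2.54 and 4.24 in SPM mice 1 to 4 and 4.34, 3.13, 3.33 and 4.68 in vehicle mice 1 to 4. It was below all vehicle mice in 3 of 4 SPM mice, with SPM mouse 4 near the top of the vehicle range. This was the largest difference of the 5 ratios, −0.44 on the log2 scale, and it did not pass the exact permutation test (p = 0.143, adjusted over the 5 ratios p = 0.714). The ratio of Card9 to Syk was 0.278 to 0.370 in SPM and 0.300 to 0.479 in vehicle mice (−0.21, exact permutation p = 0.343). Vehicle mouse 3 was at the top of this ratio, and without it the difference was −0.065.

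**Figure D4:**
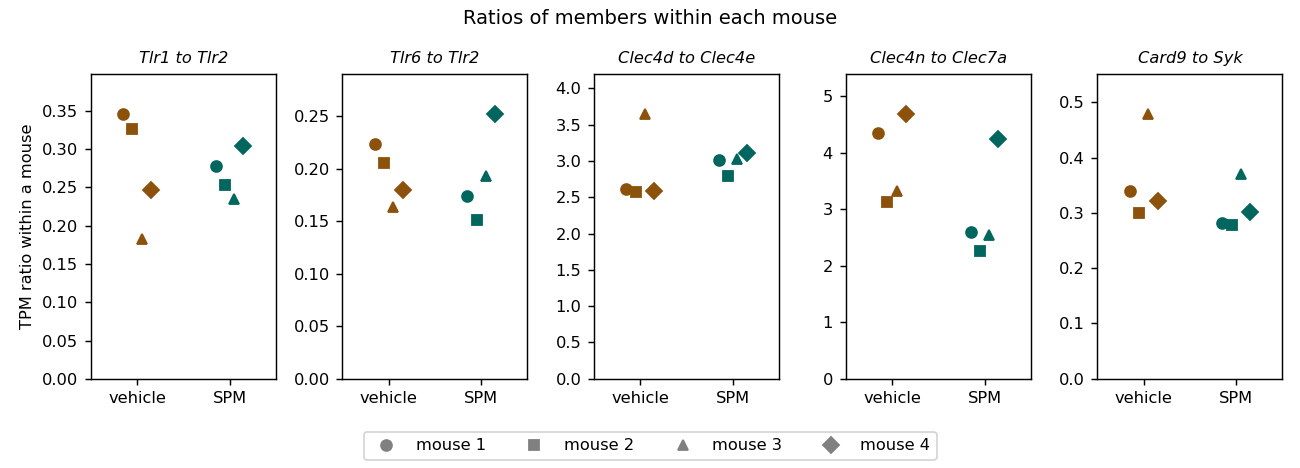
TPM ratio of 5 gene pairs within each mouse (y axes from 0), vehicle in brown and SPM in green, one symbol for each mouse number. In the panel of Clec4n to Clec7a 3 SPM mice lie at 2.26 to 2.60, below the vehicle mice, and in that of Clec4d to Clec4e vehicle mouse 3 stands apart at 3.65.

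Differences between mice were not shared by all members. Vehicle mouse 3 was the highest of 8 for Clec4d and Tlr2 and the lowest for Tlr1 and Syk, and SPM mouse 1 was the lowest for Clec4e, Clec4d and Tlr6 and the highest for Syk. Among the 36 pairs of members, the Pearson correlation of log2 CPM over the 8 mice was positive for 19, and none reached an adjusted permutation p under 0.05, the smallest being 0.382. The strongest were negative: Tlr1 with Card9 (r = −0.78, exact permutation p = 0.0213; Spearman's rho = −0.67, exact permutation p = 0.0831; r = −0.75 without the 2 mice farthest from the median of Tlr1) and Clec4d with Syk (r = −0.76, exact permutation p = 0.0290; rho = −0.62, exact permutation p = 0.115). The latter rested on the 2 mice farthest from the median of Clec4d, without which r was −0.043. The largest rho was that of Clec4e with Syk (−0.88, exact permutation p = 0.00724, adjusted over the 36 pairs p = 0.261; r = −0.68, exact permutation p = 0.0798), whose r with group means removed was −0.44 and without the 2 mice farthest from the median of Clec4e −0.81.

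Over the same 8 mice, the gene whose log2 CPM followed each member most closely, by Pearson's r among 8037 genes with a mean of at least 10 CPM, was Gad1-ps for Clec7a (r = 0.95), Fech for Clec4n (0.96), Napa for Clec4e (0.95), Ifrd1 for Clec4d (0.97), Tulp4 for Tlr1 (0.99), Icam1 for Tlr2 (0.96), Ccdc126 for Tlr6 (0.98), Hcst for Card9 (0.98) and Khnyn for Syk (0.98). These are the highest of many correlations over 8 mice and are given as a description. Icam1 encodes an adhesion molecule that leukocytes bind through β2 integrins, and Hcst encodes DAP10, a signalling adaptor of activating receptors. An r above 0.9 was found for 165 genes with Tlr1 and 92 with Syk, but for only 2 with Clec7a and 3 with Clec4n.

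The 9 genes were set beside 5 lists of other genes of the pathway, 86 genes in all, of which 85 were tested. Of these, 7 had an unadjusted edgeR p under 0.05, or 8.24%, against 6.08% of all genes, and all 7 were lower in SPM mice. None passed with adjustment over all genes in this main fit (edgeR adjusted p = 0.790 for each of the 7). The median log2 fold change over the 85 was −0.037, and that of the 9 members was −0.037.

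Among 21 other receptors of fungal wall and their partners, 15 were lower and 6 higher, with a median of −0.099, and 5 of those lower passed an unadjusted p under 0.05 in edgeR. With each mouse left out that median lay between −0.16, for SPM mouse 3, and −0.052, for SPM mouse 1, and the lower genes stayed the majority. Marco, a scavenger receptor of macrophages, had 7.04, 12.7, 10.7 and 12.98 CPM in SPM mice 1 to 4, against 40.5, 28.001, 47.2 and 11.1 CPM in vehicle mice 1 to 4. It had the largest fold change of the 7 (−1.55 ± 0.34 SE, p = 0.000572 and adjusted p = 0.790 in edgeR), although vehicle mouse 4 lay among the SPM mice (exact permutation p = 0.0857). Its p stayed under 0.05 in all 19 alternative settings, in which the log2 fold change ranged from −1.83 to −0.85, the latter without vehicle mice 1 and 3. In edgeR on genes of at least 1 count its unadjusted p was 6.6e-30, small enough to pass adjustment over the 35063 genes there. Because the groups overlapped, that p is not taken as evidence of a difference.

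Clec4a2, a relative of Dectin-2 with an inhibitory motif, reached 67.8, 84.4, 86.2 and 83.5 CPM in SPM mice 1 to 4, compared with 100.6, 91.2, 123 and 88.1 CPM in vehicle mice 1 to 4, without overlap (−0.33 ± 0.12 SE, edgeR p = 0.0178, adjusted p = 0.790; exact permutation p = 0.0286). Its relatives Clec4a3 (−0.31 ± 0.12 SE, edgeR p = 0.0178; exact permutation p = 0.0571) and Clec4a1 (−0.26 ± 0.12 SE, edgeR p = 0.0480; exact permutation p = 0.114) were lower as well, and so was Scarf1, a scavenger receptor (−0.35 ± 0.16 SE, edgeR p = 0.0410; exact permutation p = 0.0571). The calls of these 4 genes depended on single mice and on the method: an unadjusted p under 0.05 was kept in 15 of 19 settings for Clec4a2, 11 for Clec4a3, 8 for Scarf1 and 5 for Clec4a1. Among tools, scalings and filters, limma lost Clec4a2 in 1 of its 3 settings and Clec4a3 and Clec4a1 in all 3, DESeq2 and RLE size factors lost Scarf1 and Clec4a1, the filter of 1 count and the block lost Scarf1, and library size alone and filterByExpr lost Clec4a1. With single mice left out, Clec4a2 lost it without SPM mouse 1 (−0.24) or vehicle mouse 3 (−0.21), Clec4a3 without SPM mouse 4 (−0.26) or vehicle mouse 1 (−0.21) or 2 (−0.26). Scarf1 lost it without SPM mouse 1 (−0.30), 3 (−0.36) or 4 (−0.33) or vehicle mouse 1 (−0.29) or 4 (−0.33), and Clec4a1 without SPM mouse 1 (−0.22), 2 (−0.28) or 4 (−0.20) or vehicle mouse 1 (−0.16) or 2 (−0.22). The 3 most abundant genes of the list were Cd14, a co-receptor of Toll-like receptors (2916 TPM, log2 fold change −0.0071), Fcer1g, the γ chain of the lectin receptors (2062 TPM, −0.10), and Itgb2, a subunit of complement receptor 3 (1831 TPM, −0.091), and none of them passed the test.

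Markers of mononuclear phagocytes had the same direction as these receptors. By mean, 0 of 5 monocyte and 0 of 8 macrophage markers were higher in SPM mice, and their summed levels were 1492 to 1962 against 1801 to 2148 CPM (exact permutation p = 0.114) and 585 to 969 against 799.9 to 980.0 CPM (exact permutation p = 0.171). All 8 neutrophil markers were higher by mean in SPM mice, with sums of 16955 to 24950 against 12746 to 23436 CPM (exact permutation p = 0.371), and none of these marker genes was at 0 in all mice. B cells, which use Syk downstream of their antigen receptor, were marked by 3 genes, all higher by mean in SPM mice. Their sums were 297 to 636 against 308 to 429 CPM (exact permutation p = 0.429). SPM mouse 1, the highest for Syk, was at the top. SPM mouse 3 had the lowest sum, 297 CPM, with Syk at 1008 CPM, and vehicle mouse 3, the lowest for Syk, had a sum of 422 CPM. The part of these cells in the levels of the 9 members and of the other receptors was not tested.

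Of 21 genes of Syk and Card9 signalling, 12 were higher and 9 lower, with a median of 0.038. The balance moved both ways with the setting, with 16 higher and 5 lower when SPM mouse 4 was left out and in limma on log2(TPM + 1), 15 higher and 6 lower with RLE size factors and in DESeq2, 10 higher, 11 lower and a median of −0.00099 without SPM mouse 2, and 11 higher, 10 lower and 0.0011 without SPM mouse 3. The kinases Fgr (517 TPM) and Lyn (460.4 TPM) were among the most abundant, with log2 fold changes of −0.015 and 0.012. Only Hras, a small GTPase, had an unadjusted p under 0.05: it had 27.99, 28.7, 27.5 and 25.3 CPM in SPM mice 1 to 4, against 34.6, 33.2, 35.8 and 32.8 CPM in vehicle mice 1 to 4, without overlap (−0.32 ± 0.089 SE, edgeR p = 0.00343, adjusted p = 0.790; exact permutation p = 0.0286). Its p stayed under 0.05 in all 19 settings.

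Of 14 negative regulators of Syk and TLR2 signalling, 0 passed an unadjusted p under 0.05 in edgeR (5 higher, 9 lower, median −0.053). Their balance turned to 8 higher and 6 lower without SPM mouse 4 (median 0.038) and to 7 and 7 without vehicle mouse 3 (0.011) and in limma. Those tested included the most abundant, the phosphatase gene Ptpn6 (1153 TPM, −0.037), Irak3 (221 TPM, −0.048) and Dok2 (189 TPM, −0.21). Of 14 adaptors and kinases of TLR2, 0 passed as well (9 higher, 5 lower, median 0.027). That median was 0.069 when SPM mouse 1 was left out and 0.072 in limma on log2(TPM + 1), and with SPM mice 3 and 4 left out 6 were higher and 8 lower (−0.018). The most abundant were the chaperone gene Hsp90b1 (600.0 TPM, −0.25), Unc93b1 (418 TPM, 0.027) and the adaptor gene Myd88 (301 TPM, −0.065).

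Of 15 genes that zymosan sensing is known to induce, 12 were lower and 3 higher, with a median of −0.14. Single mice moved that balance both ways. Without vehicle mouse 3, 8 were higher and 7 lower, with a median of 0.017, and by group medians of CPM over all 8 mice 8 were also higher and 7 lower. Without SPM mouse 1 the median was −0.028 (6 higher, 9 lower), and without SPM mouse 3, SPM mouse 4 or vehicle mouse 1 it was −0.24. With SPM mice 3 and 4 both left out, 1 was higher and 14 lower (−0.35). Of the 15, 1 had an unadjusted p under 0.05. Tnf reached 174, 172, 185 and 159 CPM in SPM mice 1 to 4, compared with 178, 189, 326 and 197 CPM in vehicle mice 1 to 4, so that SPM mouse 3 overlapped the vehicle mice and vehicle mouse 3 was far above all (−0.36 ± 0.17 SE, edgeR p = 0.0462, adjusted p = 0.790; exact permutation p = 0.0571). Il1b (1497 TPM, −0.13), Ccl3 (1087 TPM, −0.21) and Cxcl2 (1061 TPM, −0.42) were the most abundant and did not pass. Vehicle mouse 3, the mouse with the highest Clec4d and lowest Syk, also had the highest level of these 3 genes, with Il1b at 1833 CPM against 765 to 1201 in the other 7 mice and Cxcl2 at 1578 against 466 to 771. Without it the log2 fold change of Tnf was −0.12 and the call was lost, as it was without any single SPM mouse (−0.40 to −0.31), and in DESeq2, limma, and edgeR with RLE size factors or filterByExpr, so that it was kept in 6 of 19 settings.

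**Figure D5:**
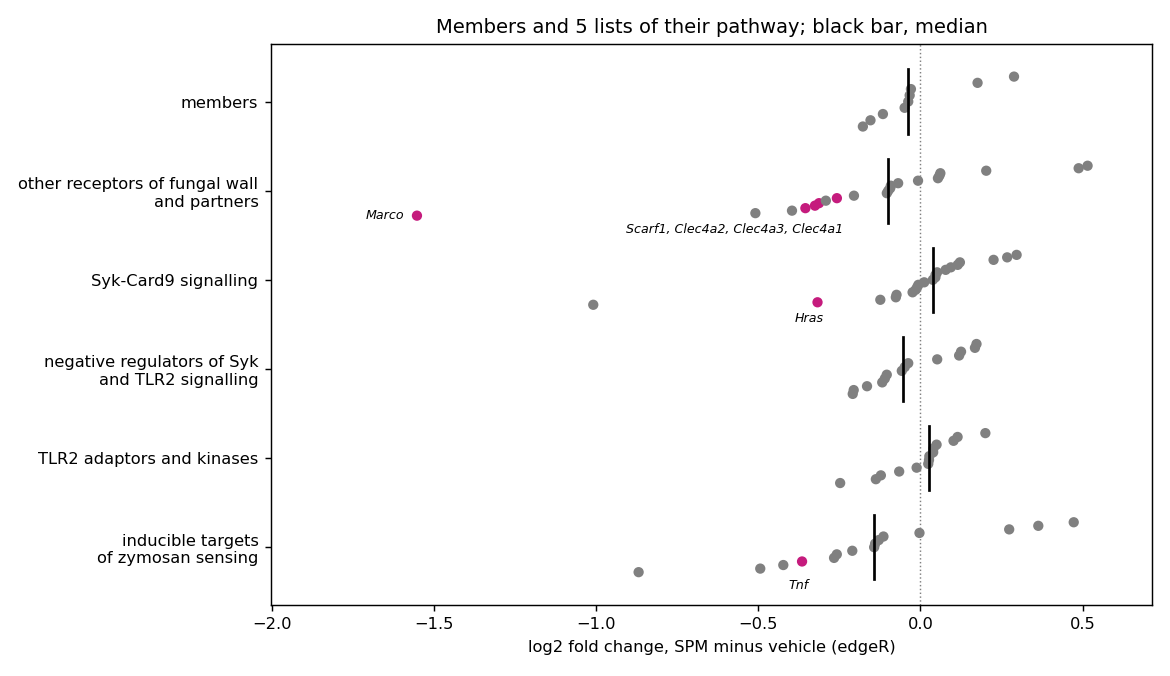
Log2 fold change, SPM minus vehicle (x axis), of the 9 members and of the genes of 5 lists of their pathway, each point 1 gene, with a black bar at the median. The 7 genes with an unadjusted edgeR p under 0.05 (magenta, named) are all lower in SPM mice, and the medians of the members and lists lie between −0.14 and 0.038.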

How the data were processed

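RNA-seq was measured in exudate leukocytes of 8 mice, grouped by their labels. Per the methods and processing notes, the authors trimmed reads (Trimmomatic 0.36), mapped them to GRCm38 with 92 spike-ins (STAR 2.5.2b) and counted unique reads in exons per gene (featureCounts, Subread 1.5.2), and they compared groups with DESeq2. The notes also name GRCm39. The annotation release and the strand setting are not given in the sources used here, and all 9 members had the spans of GENCODE M21. The deposited counts are raw, and the joined table equals the counts per mouse. The deposited TPM are counts per gene length, scaled per library with spike-ins, to within 5.0e-05. Nothing says that numbered mice shared a cage or day, and no 2 libraries agreed within sampling noise.

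Genes with at least 10 counts were tested with edgeR 4.0.16 (R 4.3.3; TMM, quasi-likelihood F test, no covariates, Benjamini-Hochberg adjustment). SEs came from the log2 fold change and F. The 95% intervals are for the log2 fold change between the groups, given the spread between these mice, and are not ranges of single mice. Spike-ins (0.517% to 1.27% of counts) were left out. CPM are TMM-scaled, and log2 CPM used a prior count of 2. Levels were compared between genes in TPM. Exact permutation tests were two-sided over all 70 arrangements of mice or all sign flips over the 8 mice. Alternatives were DESeq2 1.42.0, limma 3.58.1 on log2 TPM, other scalings and filters, the mouse number as a block, and each mouse left out. Leaving out the shallowest SPM mice (3 and 4), the vehicle mice with most genes detected (1 and 3), and the length by unique 50-base words were added after seeing the data.

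The members and lists were chosen with earlier results of these data known. Beside the members, named genes were the 3 with the highest mean TPM and those with an unadjusted p under 0.05 in each pathway list, the gene with the highest r for each member, and the marker with most counts; some of these are not reported here. Where a symbol had several identifiers, the one with most counts was used.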

Additional observations from a re-analysis of the deposited data

Results flagged for a closer look

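Of 46 groups of 4 values that were screened (levels, ratios and marker sums), 3 had a sample far from the other 3 by Dixon's criterion, which chance alone gives in about 1 of 20 groups. The level of Card9 in SPM mouse 3 was 91.5 CPM, with the other SPM mice at 68.1 to 71.1 CPM. The ratio of Clec4d to Clec4e in vehicle mouse 3 was 3.65, with the other vehicle mice at 2.58 to 2.61. The summed T cell markers in SPM mouse 1 were 41.3 CPM, with the other SPM mice at 15.3 to 19.2 CPM.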

How the results depend on the processing

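The adjusted p stayed above 0.05 for all 9 members in each of 19 alternative settings (lowest 0.477). The number of members with an unadjusted p under 0.05, 0 in edgeR, was 1 with genes of at least 1 count (Clec7a), with the replicate block (Clec7a, 0.27) and in DESeq2 (Syk), 2 without SPM mice 3 and 4 (Clec7a, 0.50, and Tlr6, for which these are the 2 highest mice, so that its call follows from leaving them out), and 0 to 1 with each mouse left out. Whether the mouse numbers pair the mice was not tested: deviations of same-numbered mice correlated at −0.12, 0.24, 0.28 and −0.0049, and 2 of 4 mice in each group correlated best with their own number. These values cannot show whether same-numbered mice shared a cage or day. With the replicate block 10 pathway genes had an unadjusted p under 0.05 (11.8%, against 6.22% of all genes), compared with 7. That number was 4 with RLE size factors, in DESeq2, in limma on log2(TPM + 1) and in limma on genes of at least 1 TPM, 3 in limma on log2(TPM + 0.1), 14 with genes of at least 1 count (16.5%, against 6.69% of all genes), 2 without vehicle mice 1 and 3 (2.35%, against 3.30%), and 4 to 8 with each mouse left out; over all genes the share ranged from 3.10% to 7.60% in the 19 settings. The edgeR fit on genes of at least 1 count gave Marco an unadjusted p of 6.6e-30 although its groups overlapped. The counts of genes from that fit are therefore to be read with caution. Clec7a and Syk stayed higher, and Clec4n and Clec4e lower, in all 19 settings. The sign of the others turned, the cause not being tested: in limma on TPM on log2(TPM + 1) Tlr1 was 0.011, Tlr2 0.0165 and Card9 0.0183, on genes of at least 1 TPM the same, and on log2(TPM + 0.1) they were 0.0114, 0.0165 and 0.0185, and without vehicle mice 1 and 3 Clec4d was 0.11 and Card9 0.0798. With each mouse left out Clec4d ranged from −0.18 to 0.039, Tlr1 from −0.15 to 0.014, Tlr2 from −0.0998 to 0.038, Tlr6 from −0.13 to 0.052 and Card9 from −0.13 to 0.066, the ratio of Tlr1 to Tlr2 from −0.19 to 0.12 and that of Tlr6 to Tlr2 from −0.16 to 0.0894. The number of mice, 4 a group, limits the precision.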
